A study of Mus musculus with 3 samples.

Results

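Glutathione transferases and glutathione peroxidases are enzymes that use the tripeptide glutathione: transferases attach it to reactive electrophiles, and peroxidases use it to reduce hydrogen peroxide and lipid hydroperoxides. The 8 genes described here, chosen by symbol, were the membrane-bound transferases Mgst1 and Mgst3, the soluble transferases Gsta3, Gstm1 and Gsto1, and the peroxidases Gpx1, Gpx3 and Gpx4. All 8 were among the 33696 genes of the count tables. They were measured in cells washed from the airspaces of wild-type C57BL/6J mice, 12 weeks old, that had spent 3 hours in filtered air, in ozone at 1 ppm or in ozone at 1.5 ppm, with lavage 22 to 24 hours later. Each group was 1 droplet library of cells pooled from 3 to 4 mice (10x Genomics 3' chemistry, which tags each captured RNA molecule with a unique molecular identifier, UMI). There was thus no biological replicate, no test between groups was possible, and every interval given covers counting error only.

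Ozone reacts with lipids and thiols of the fluid that lines the airspaces, and alveolar macrophages, the resident phagocytes there, meet the oxidised products. Glutathione is made by glutamate-cysteine ligase and glutathione synthetase from cysteine that enters the cell largely as cystine, and glutathione reductase returns its oxidised form to use. Many transferase genes are targets of the transcription factor Nrf2, which binds antioxidant response elements. Gpx1, Gpx3 and Gpx4 are selenoproteins: a UGA codon, elsewhere a stop, is read as selenocysteine, the residue that carries out the reduction. Gpx1 acts mainly on hydrogen peroxide in the cytosol, Gpx3 is secreted into extracellular fluid, and Gpx4 reduces phospholipid hydroperoxides within membranes and so restrains ferroptosis.

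The selenocysteine codon is shown in its coding context because it defines the 3 peroxidases as a group. In each line the TGA in capitals is the selenocysteine codon in DNA letters, with 12 coding bases on either side (reference GENCODE M21 transcripts).
Gpx1: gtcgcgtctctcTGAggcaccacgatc
Gpx3: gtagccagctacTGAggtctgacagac
Gpx4: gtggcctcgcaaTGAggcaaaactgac
In the longest annotated coding sequence of each gene, it is codon 47 of 201 residues in Gpx1, 73 of 226 in Gpx3 and 129 of 253 in Gpx4. The number may be lower in shorter forms of the protein. Of the 24 bases beside the TGA, on which the lines are aligned, Gpx1 and Gpx4 shared 14, Gpx3 and Gpx4 shared 13, and Gpx1 and Gpx3 shared 10. No level for unrelated sequences was computed.

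The sequence before the start site is shown for the 2 genes that differed most in alveolar macrophages, Mgst3 and Gstm1, and for the 2 genes whose window held an antioxidant response element core, Gsta3 and Mgst1. The 250 bases upstream of the first annotated start are from RefSeq, build GRCm38.p6, and capitals mark the core TGACNNNGC on either strand.
Mgst3 (chr1:167393842-167394091, minus strand): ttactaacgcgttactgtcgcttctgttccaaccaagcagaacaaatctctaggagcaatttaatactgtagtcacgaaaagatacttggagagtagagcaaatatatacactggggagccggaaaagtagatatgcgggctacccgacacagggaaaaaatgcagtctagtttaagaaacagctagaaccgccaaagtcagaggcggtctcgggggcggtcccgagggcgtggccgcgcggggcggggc
Gstm1 (chr3:108017974-108018223, minus strand): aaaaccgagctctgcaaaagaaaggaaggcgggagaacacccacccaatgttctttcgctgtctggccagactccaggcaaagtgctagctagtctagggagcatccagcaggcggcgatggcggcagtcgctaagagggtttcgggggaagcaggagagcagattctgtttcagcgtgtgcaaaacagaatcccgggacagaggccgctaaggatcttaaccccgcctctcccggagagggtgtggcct
Gsta3 (chr1:21240335-21240584, plus strand): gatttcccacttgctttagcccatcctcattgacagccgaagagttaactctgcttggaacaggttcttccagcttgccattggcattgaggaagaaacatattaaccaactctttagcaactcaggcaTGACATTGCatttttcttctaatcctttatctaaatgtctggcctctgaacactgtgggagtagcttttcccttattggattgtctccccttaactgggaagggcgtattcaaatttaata
Mgst1 (chr6:138140277-138140526, plus strand): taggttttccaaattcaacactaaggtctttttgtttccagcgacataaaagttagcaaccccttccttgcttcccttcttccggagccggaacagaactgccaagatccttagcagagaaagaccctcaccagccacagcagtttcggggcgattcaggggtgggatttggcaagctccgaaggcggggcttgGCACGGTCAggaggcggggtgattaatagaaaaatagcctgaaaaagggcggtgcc
The core was searched on both strands of all 13 start windows of the 8 genes, each reaching from 250 bases before to 50 after a start, and was found in 2 of them. In Gsta3 it read TGACATTGC on the gene's strand, and in the first Mgst1 window it was on the opposite strand. Of 32851 such windows of all genes, 12.4% held it. The GC box GGGCGG was present in 8 of the 13 windows, from 6 of the 8 genes (all but Gsta3 and Gstm1), and in 35.7% of all windows. The TATA box TATAAA was found for Gstm1, in its second window, and in 13.6% of all windows. None of these letters was tested for binding.

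Barcodes with at least 500 UMIs, 300 genes and at most 10% mitochondrial UMIs were kept, and cells were clustered without using the 8 genes. Alveolar macrophage-like cells made up 3315 of 3479 kept cells in filtered air, 2135 of 2241 at 1 ppm and 5657 of 6577 at 1.5 ppm, with median UMIs per cell of 13871, 16001 and 13088. All 14 alveolar macrophage markers were detected in them in each library, at a summed 15503, 17338 and 13013 CPM (UMIs per 1000000 UMIs of the summed cells). The 1.5 ppm library stood apart: the median mitochondrial share of these cells was 4.12% in filtered air, 3.97% at 1 ppm and 2.31% at 1.5 ppm, and the limit of 10% had removed 34.2%, 30.6% and 9.07% of barcodes. The libraries shared between 4 and 10 barcodes in each pair.

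In alveolar macrophage-like cells, 2 of the 6 members that reached 50 CPM differed by 1.5-fold or more at 1.5 ppm, in opposite directions: Mgst3 was higher, as were 7.81% of all genes tested, and Gstm1 lower, as were 3.51%, than in filtered air. None of the 6 differed so at 1 ppm, where 0.373% of all genes were higher and 0.795% lower. Gpx4 was modestly higher at 1 ppm and again at 1.5 ppm, Gsto1 slightly lower at 1.5 ppm, and Mgst1 and Gpx1 stayed within 1.1-fold. Gsta3 and Gpx3 were nearly absent.

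Mgst3, a microsomal enzyme with transferase and lipid peroxide reductase activity, stood at 113 CPM in filtered air, 107 CPM at 1 ppm and 239 CPM at 1.5 ppm. Only the 1.5 ppm library was high, and the intervals of the other 2 touched (110 to 116 and 104 to 111 CPM). The ratio of 1.5 ppm to filtered air was 2.11 (95% exact interval 2.05 to 2.18), and that of 1 ppm to filtered air 0.949 (0.912 to 0.989). Cells were also thinned to 5000 UMIs each, which left out 58, 34 and 308 cells with fewer in filtered air, 1 ppm and 1.5 ppm. Of the 3257, 2101 and 5349 thinned cells, 39.7%, 37.9% and 63.0% held a Mgst3 UMI, against 69.4%, 73.3% and 84.0% of all cells unthinned.

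Gstm1, a mu-class transferase of the cytosol, had 236 CPM in filtered air, 221 CPM at 1 ppm and 145 CPM at 1.5 ppm. The 1.5 ppm library was again the one that differed, now in the low direction. Its ratio to filtered air was 0.614 (0.599 to 0.629), and the 1 ppm ratio 0.939 (0.913 to 0.966). A UMI was found in 54.6%, 54.5% and 40.3% of thinned cells in filtered air, 1 ppm and 1.5 ppm, against 79.6%, 84.1% and 65.5% unthinned. Mu-class genes are close copies of each other, so reads may have been split or lost between them.

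Gpx4 had 354 CPM in filtered air, 399 CPM at 1 ppm and 466 CPM at 1.5 ppm, an order that followed the dose with no overlap of intervals. The ratio to filtered air was 1.32 at 1.5 ppm (1.29 to 1.34) and 1.13 at 1 ppm (1.10 to 1.15), both under 1.5-fold. The Gpx4-ps2 pseudogene has no row of its own in the counts. Gpx1 had 650 CPM in filtered air, 649 CPM at 1 ppm and 699 CPM at 1.5 ppm, which put 1.5 ppm at 1.08 times filtered air (1.06 to 1.09). Gpx1 at 1 ppm could not be told from filtered air within counting error, with a ratio of 0.997 (0.981 to 1.01).

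Mgst1, which conjugates glutathione and reduces lipid hydroperoxides at the endoplasmic reticulum and the outer mitochondrial membrane, had 249.7 CPM in filtered air, 238 CPM at 1 ppm and 236 CPM at 1.5 ppm. Both ozone libraries lay slightly under filtered air, and their own intervals overlapped. Gsto1, an omega-class enzyme that reduces dehydroascorbate and acts as a thioltransferase, had 135 CPM in filtered air, 132 CPM at 1 ppm and 115 CPM at 1.5 ppm. The ratio of 1.5 ppm to filtered air was 0.848 (0.822 to 0.874). The Gsto1 locus overlaps Cfap43 on the opposite strand.

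Gpx3 gave 26 UMIs in filtered air, 40 at 1 ppm and 53 at 1.5 ppm, which is 0.522, 1.07 and 0.591 CPM. The 1 ppm library was the high one, at 2.04 times filtered air (1.22 to 3.49). In cells with 3 or more UMIs of G2 and M phase genes that ratio was 3.05 (1.41 to 7.16). In the remaining cells it was 1.36 (0.637 to 2.91), which could not be told from no difference. The 1.5 ppm library lay near filtered air with a ratio of 1.13 (0.695 to 1.88). Gpx3 was lower at 1.5 ppm than at 1 ppm, at 0.553 (0.360 to 0.856). Among 12876 genes with 100 UMIs and no minimum level, 2.02% were 1.5-fold or more higher and 3.04% lower at 1 ppm than in filtered air, and 10.3% higher and 3.18% lower at 1.5 ppm than at 1 ppm. Gsta3, an alpha-class transferase, gave 39, 12 and 24 UMIs in filtered air, 1 ppm and 1.5 ppm, or 0.784, 0.320 and 0.267 CPM. Both genes lay far under 50 CPM.

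**Figure D1:**
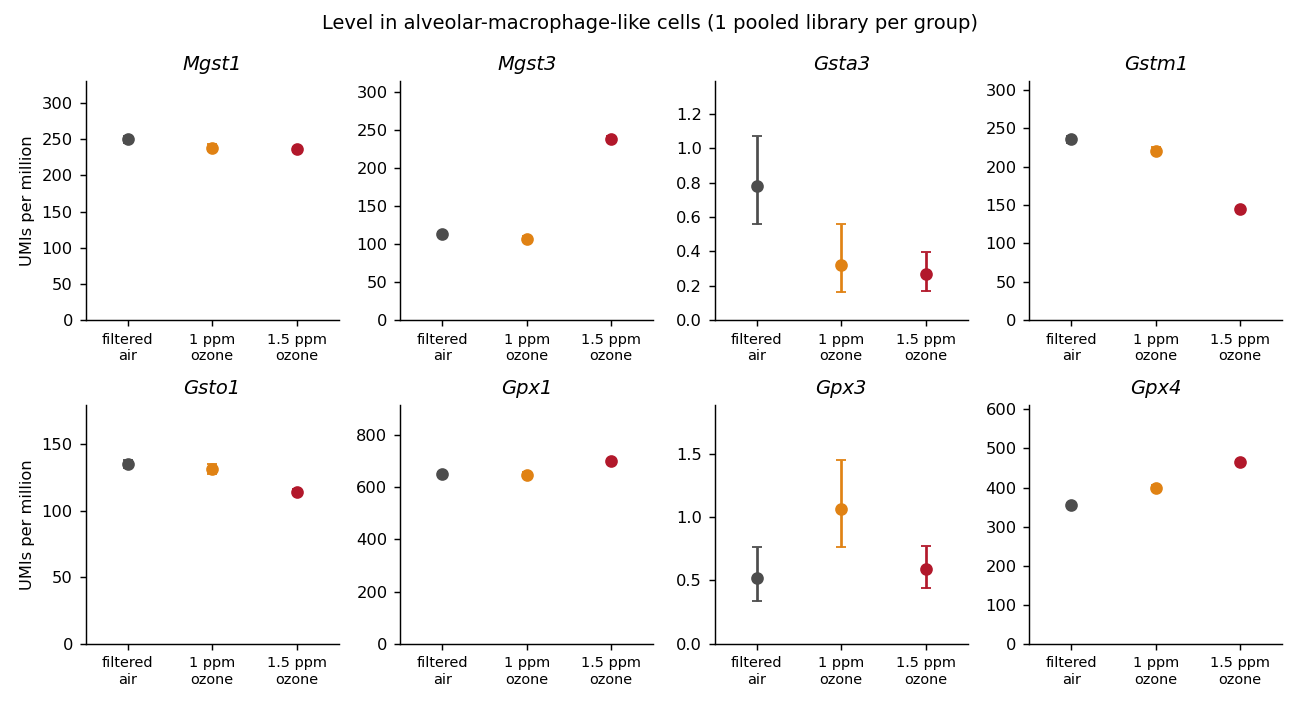
Level of each gene in alveolar macrophage-like cells, as CPM (UMIs per 1000000, linear axis from 0, each gene on its own scale) in filtered air, 1 ppm and 1.5 ppm ozone; bars are 95% exact Poisson intervals of 1 pooled library per group. Mgst3 is high and Gstm1 low at 1.5 ppm alone, while Gpx4 has 354, 399 and 466 CPM in dose order.

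Set beside all genes, 1.5-fold calls were asked of genes with at least 100 UMIs over the 3 libraries and 50 CPM in either library compared. The 6 members other than Gsta3 and Gpx3 met this, each with over 100 CPM in all 3 libraries. For 1.5 ppm against filtered air, the 7.81% called higher and 3.51% called lower were of 4160 genes, and Mgst3 and Gstm1 were 1 of 6 members in each direction. For 1 ppm against filtered air none of the 6 was called, and the shares of 0.373% and 0.795% were of 4026 genes. For 1.5 ppm against 1 ppm, Mgst3 was again higher at 2.23-fold (2.15 to 2.30), with 4.54% of 4055 genes called higher, and Gstm1 lower at 0.654 (0.636 to 0.672), with 1.36% called lower. That comparison shares its 1.5 ppm library with the first, so it is no second measurement of it.

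The levels at 1.5 ppm moved with transcript length over all genes. Tested genes had a median log2 ratio of -0.12 for 1.5 ppm over filtered air, but the 200 genes nearest in longest annotated transcript length to each tested member had medians between 0.26 (Gstm1, 1289 bases) and 0.50 (Gpx4, 995 bases). Mgst3 stood at a log2 ratio of 1.08 and, relative to its length neighbours, at 0.67, which is still past 1.5-fold. Gstm1 stood at -0.70 and, relative to its neighbours, at -0.97. The small positive ratios changed sign: Gpx4 had 0.40 and, relative to neighbours, -0.10, and Gpx1 had 0.10 and -0.31. Gsto1 lay lower still, with -0.24 and -0.60, the second of which is past 1.5-fold, so that 3 members instead of 2 are called after this centring. Mgst1 had -0.08 and -0.46. Gpx4 at 1 ppm also changed sign, with 0.17 over filtered air and -0.04 relative to neighbours. What makes short transcripts differ between these libraries was not tested.

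**Figure D2:**
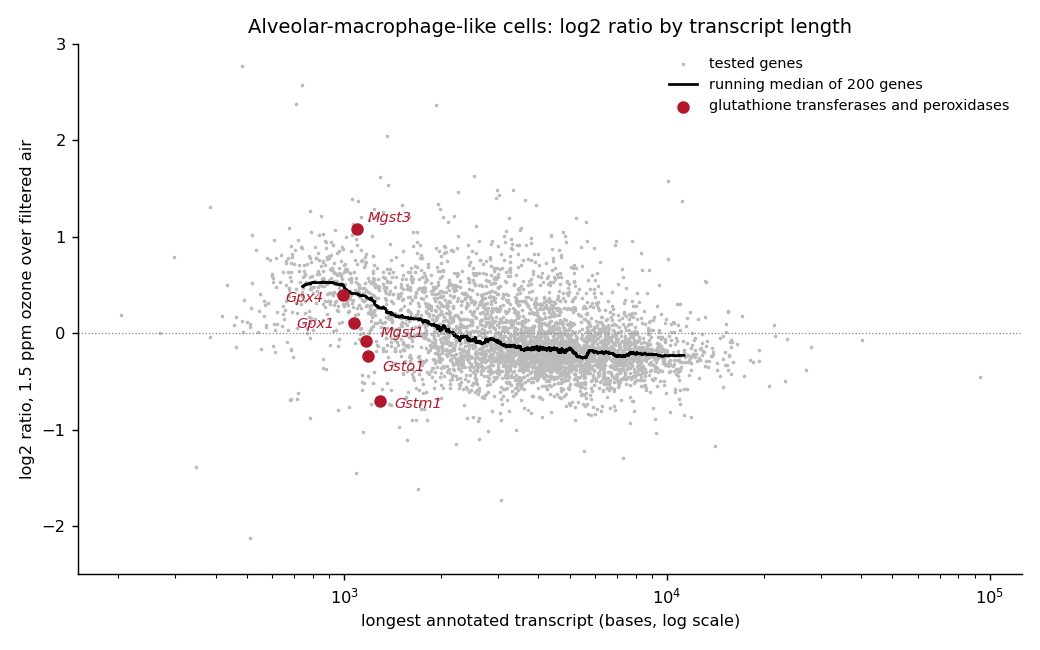
Log2 ratio of 1.5 ppm ozone over filtered air in alveolar macrophage-like cells (vertical) against the longest annotated transcript in bases (horizontal, log scale) for 4150 tested genes with a length, in grey; the line is the running median of 200 genes and red points are the 6 members tested. Mgst3 lies above the line, Gpx4 just under it, and Gstm1, Gsto1, Mgst1 and Gpx1 under it.

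The differences in Mgst3 and Gstm1 were also present cluster by cluster. Of 11 alveolar macrophage-like clusters with 30 or more cells both at 1.5 ppm and in filtered air, Mgst3 was higher at 1.5 ppm in 11, each with an interval above 1. Its log2 ratio ran between 0.51 in cluster 7, whose cells had a median of 7.18% mitochondrial UMIs, and 1.31 in cluster 8, led by DNA replication genes such as Mcm2 and Mcm5. Gstm1 was lower in 11 of the 11, each with an interval under 1, between -0.92 in cluster 4, led by the antigen presentation genes H2-Aa and Cd74, and -0.23 in cluster 6, led by Rgcc and Cxcr1. Gpx4 was higher in 10 of 11, between -0.03 and 0.61, and in 10 of 10 clusters at 1 ppm against filtered air, between 0.02 and 0.22. Mgst1, which barely differed over the whole class, was higher in 7 of 11 clusters and lower in 4 at 1.5 ppm against filtered air. Cells of a library share their source, so clusters are not replicates.

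Levels also differed between clusters. Within the 1.5 ppm library Gstm1 ranged between 31.7 CPM in cluster 7 and 581 CPM in cluster 12, and within filtered air between 51.2 and 935 CPM in the same clusters. It had 120 CPM in filtered air, 121 CPM at 1 ppm and 82.1 CPM at 1.5 ppm in cluster 2, led by Il1b and the sterol synthesis genes Cyp51 and Fdps, and 411, 329 and 264 CPM in cluster 3, led by the metallothioneins Mt1 and Mt2. Cluster 2 held 1223 cells of the 1.5 ppm library, 245 of 1 ppm and 102 of filtered air, so it may be that library as much as a cell state. Cluster 1, led by Dnah11 and Lepr, was mainly from filtered air (1138 of 1655 cells).

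Clusters 7 and 18, with median mitochondrial shares of 7.18% and 7.37%, were low in every tested member. Gpx1 had 117 and 122 CPM in them and between 392 and 1025 CPM in the other clusters of the class. Gpx4 had 54.8 and 69.6 CPM there, against 324 to 569 CPM elsewhere. The highest Gpx1 level, 1025 CPM, was in cluster 10, led by the mitotic genes Ube2c, Cenpf and Ccnb1.

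**Figure D3:**
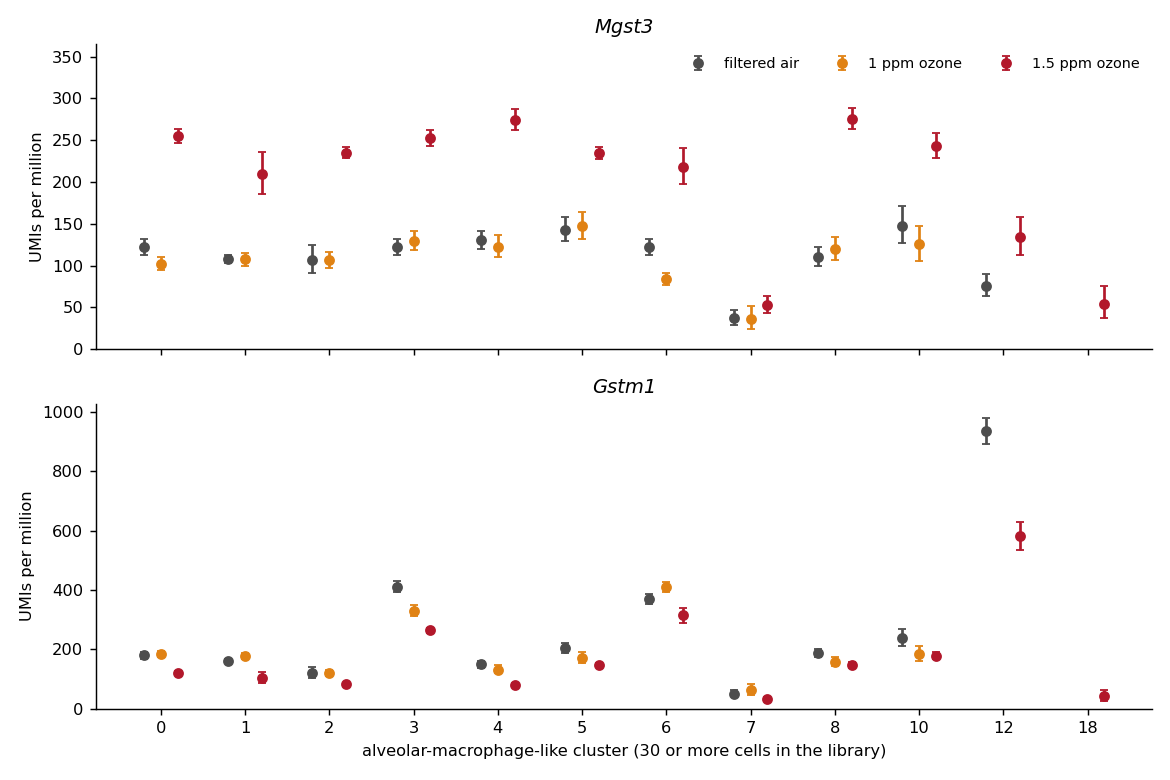
Mgst3 (top) and Gstm1 (bottom) in CPM (UMIs per 1000000, linear axes from 0) for each alveolar macrophage-like cluster, in filtered air (grey), 1 ppm (orange) and 1.5 ppm ozone (red); points need 30 or more cells, and bars are 95% exact Poisson intervals. In each cluster with both libraries, Mgst3 is higher and Gstm1 lower at 1.5 ppm than in filtered air, and cluster 12 has the highest Gstm1 level of both libraries.

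Mitochondrial share, which differed between the libraries, moved with both genes. In cells with 2 to 4% mitochondrial UMIs, Mgst3 had 118 CPM in filtered air, 109 CPM at 1 ppm and 244 CPM at 1.5 ppm, and Gstm1 had 245, 221 and 142 CPM. Those differences, ratios of 2.07 and 0.579 for 1.5 ppm to filtered air, are about as large as in the whole class. In cells with 4 to 6%, of which filtered air had 1265, 1 ppm had 821 and 1.5 ppm had 303, Mgst3 had 112 CPM in filtered air, 111 CPM at 1 ppm and 164 CPM at 1.5 ppm. There 1.5 ppm was 1.46 times filtered air (1.34 to 1.60), under 1.5-fold, while Gstm1 had 249.9, 233 and 120 CPM. In cells with 6 to 10%, Mgst3 had 86.3 CPM in filtered air, 78.5 CPM at 1 ppm and 81.9 CPM at 1.5 ppm. No Mgst3 difference was detectable there, while Gstm1 had 167, 168 and 58.8 CPM. Gpx1, Gpx4, Gsto1 and Mgst1 were lower there too, with 1.5 ppm at 0.443, 0.486, 0.486 and 0.604 times filtered air. At 4 to 6% the same genes had ratios of 0.689, 0.760, 0.613 and 0.832. In cells under 2%, of which filtered air had 76, 1 ppm had 51 and 1.5 ppm had 1767, Gstm1 had 154, 156 and 162 CPM with overlapping intervals, and Mgst3 had 176, 82.9 and 253 CPM, which put 1.5 ppm at 1.44 times filtered air (1.24 to 1.68). The part of mitochondrial share in these differences was not tested.

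Cell division also differed between the libraries: 933 of 3315 cells in filtered air, 612 of 2135 at 1 ppm and 2197 of 5657 at 1.5 ppm held 3 or more UMIs of 22 G2 and M phase genes. Mgst3 in those cells had 118 CPM in filtered air, 116 CPM at 1 ppm and 241 CPM at 1.5 ppm, and in the remaining cells 110, 103 and 237 CPM. The Mgst3 difference was thus as large in either set. Mgst1 behaved otherwise. In the cells with such UMIs it had 242 CPM in filtered air, 197 CPM at 1 ppm and 203 CPM at 1.5 ppm, and in the remaining cells 254, 263 and 275 CPM. Its near-equality over the class was made of a lower level in the first set and a higher one in the second.

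Cluster 12 had the highest level of Gstm1 and of Gsta3 within the class when the libraries were summed. The same held for Gsto1 (170 CPM), Gpx4 (569 CPM) and Gpx3 (3.78 CPM on 12 UMIs). Outside clusters 7 and 18, it was the lowest cluster for Mgst3 (91.6 CPM) and Gpx1 (392 CPM). It was led by Slc7a11, the cystine importer, and Hmox1, heme oxygenase, with heat shock genes Hspa1a and Hspa1b and the sulfiredoxin Srxn1, and carried 6 counted alveolar macrophage markers. It held 97 cells of filtered air, 14 of 1 ppm and 75 of 1.5 ppm. Gstm1 stood at 935 CPM in its filtered air cells, 780 CPM at 1 ppm and 581 CPM at 1.5 ppm, against 209, 217 and 139 CPM in the other alveolar macrophage-like cells. In each library the cluster was far above the other cells, and 1.5 ppm was the lowest library in both sets.

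Of the 75 Gsta3 UMIs of the class, 34 lay in cluster 12, in 23 of its 186 cells, and 26 of these came from filtered air. In filtered air the cluster gave 26 of the 39 UMIs of the class, at 1 ppm 3 of 12 and at 1.5 ppm 5 of 24. The cluster's level was 14.3 CPM in filtered air, 10.0 CPM at 1 ppm and 4.69 CPM at 1.5 ppm, against 0.271, 0.242 and 0.214 CPM in the other cells. Within the cluster the ratio of 1.5 ppm to filtered air was 0.327 (0.0981 to 0.865), on 5 and 26 UMIs. The 1 ppm ratio of 0.700 (0.136 to 2.28) could not be told from no difference at this depth. The 10 airway epithelial markers summed to 56.7 CPM in cluster 12 and 148 CPM in the other alveolar macrophage-like cells. These markers include Tppp3, also a leading gene of macrophage cluster 1, so the sum is not a measure of airway RNA alone. Scgb1a1, the secretoglobin of club cells, had 24.5 CPM (19.4 to 30.6) in cluster 12 and 31.1 CPM (30.3 to 32.0) in the other alveolar macrophage-like cells. There were 2.29 Scgb1a1 UMIs for each Gsta3 UMI in cluster 12, against 132 in those other cells and 533 in airway epithelial-like cells. The part of airway RNA in the Gsta3 counts was not tested. Gsta3 overlaps the antisense gene Gm28836, and alpha-class genes are close copies, so its counts carry that doubt. Without cluster 12 the log2 ratio of Gsta3 at 1 ppm over filtered air was -0.12, against -1.21 with it.

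**Figure D4:**
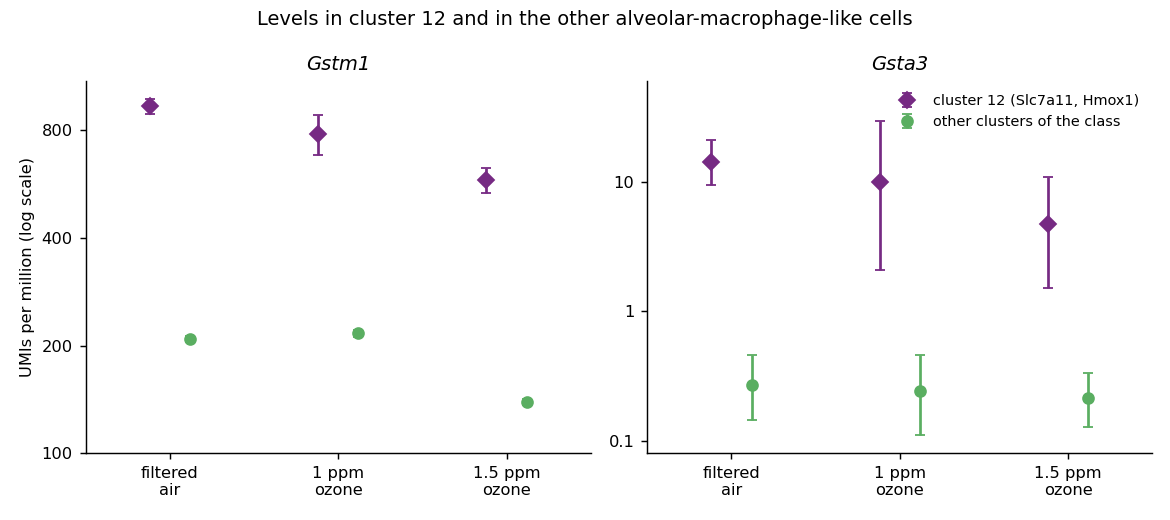
Gstm1 (left) and Gsta3 (right) in CPM (UMIs per 1000000, log axes) in cluster 12 (purple diamonds) and in the other alveolar macrophage-like clusters (green circles), for filtered air, 1 ppm and 1.5 ppm ozone; bars are 95% exact Poisson intervals. Cluster 12 lies above the other cells in each library for both genes, and its Gstm1 level is 935, 780 and 581 CPM in the order of the doses.

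Outside the macrophages, the soluble transferases Gsto1 and Gsta3 and the membrane-bound Mgst1 were highest in airway epithelial-like cells, of which filtered air had 25, 1 ppm had 22 and 1.5 ppm had 99. Gsto1 there had 1429 CPM in filtered air, 751 CPM at 1 ppm and 964 CPM at 1.5 ppm. Mgst1 had 971 CPM in filtered air, 470 CPM at 1 ppm and 708 CPM at 1.5 ppm. Both were highest in filtered air and lowest at 1 ppm, on 25 and 22 cells of median depth 1431 and 846 UMIs against 4347 at 1.5 ppm. The peroxidase Gpx4 also had a higher value there than in alveolar macrophage-like cells, which had 354, 399 and 466 CPM. In airway epithelial-like cells it had 728 CPM (547 to 950) in filtered air, 564 CPM (380 to 805) at 1 ppm and 606 CPM (557 to 658) at 1.5 ppm. The intervals of the classes overlapped only at 1 ppm.

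Gsta3 had 458 CPM in the airway epithelial-like cells of filtered air, 150 CPM at 1 ppm and 235 CPM at 1.5 ppm, from 34, 8 and 222 UMIs. At 1.5 ppm 46.5% of the 99 airway epithelial-like cells held a Gsta3 UMI (exact binomial interval 36.4 to 56.8%), against 1.37% of 73 T cell-like cells and 0.371% of alveolar macrophage-like cells of the same library. Its level over the 3 libraries was 246 CPM in airway epithelial-like cells and 0.424 CPM in alveolar macrophage-like cells. Gpx3 gave 1 UMI in the 146 airway epithelial-like cells and none in neutrophil-like, migratory dendritic cell-like or T cell-like cells, where 3 UMIs would have been 11.1, 3.00 and 6.38 CPM.

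Gpx1 was ordered differently. At 1.5 ppm, the library with most cells of these classes, it had 793 CPM (683 to 914) in 79 neutrophil-like cells, 699 CPM (694 to 705) in alveolar macrophage-like cells, 515 CPM (456 to 580) in 53 migratory dendritic cell-like cells, 299 CPM (265 to 336) in 99 airway epithelial-like cells and 260 CPM (211 to 317) in 73 T cell-like cells. The first pair overlapped, as did the last pair. The order was not the same in every library. Airway epithelial-like cells had 297 CPM (186 to 449) in filtered air, where migratory dendritic cell-like cells, with an overlapping interval, had 181 CPM (136 to 237), and 620 CPM (427 to 871) at 1 ppm, where they overlapped alveolar macrophage-like cells. Gstm1 had a higher value in airway epithelial-like than in alveolar macrophage-like cells in each library, with intervals that touched or overlapped in all 3. The airway cells had 364 CPM (240 to 530) in filtered air, 319 CPM (186 to 511) at 1 ppm and 164 CPM (139 to 192) at 1.5 ppm, against 236, 221 and 145 CPM in the macrophages. At 1.5 ppm it had 53.6 CPM (32.7 to 82.8) in T cell-like, 46.4 CPM in neutrophil-like and 26.5 CPM (14.5 to 44.5) in migratory dendritic cell-like cells, all of which overlapped. Mgst3 at 1.5 ppm had 168 CPM (143 to 197) in airway epithelial-like cells, under the 239 CPM of alveolar macrophage-like cells, and between 59.0 and 80.4 CPM in neutrophil-like, migratory dendritic cell-like and T cell-like cells, which overlapped.

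Free RNA in the droplets could give low values in any class. After a single random thinning to 1000 UMIs a cell, 5.71% of T cell-like cells at 1.5 ppm held a Mgst1 UMI and 7.14% a Mgst3 UMI. None of 70 held a Gstm1 UMI, but a separate draw over the 3 libraries found Gstm1 in 5.21% of 96 T cell-like cells. The absence of Gstm1 thus depends on the draw. Of alveolar macrophage-like cells of the 1.5 ppm library, 21.3%, 19.8% and 12.0% held a UMI of Mgst1, Mgst3 and Gstm1. Median depths of the T cell-like and macrophage-like cells were 3760 and 13088 UMIs. Shares in T cell-like cells are therefore not read as expression. In 53 migratory dendritic cell-like cells at 1.5 ppm Mgst3 had 62.5 CPM (43.0 to 87.7), against 3.42 CPM (0.0866 to 19.0) in 27 cells of filtered air, on 33 and 1 UMIs. Gpx1 had 515 CPM in the same 1.5 ppm cells, against 181 CPM in filtered air. Mgst1, near-equal in the macrophages, had 43.5 CPM there against 3.42 CPM, on 23 and 1 UMIs, and Gpx4 had 343 against 195 CPM. The Mgst3 difference in these cells was thus not particular to that gene. Gstm1 and Gsto1 had overlapping intervals. The part of free RNA in these values was not tested.

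**Figure D5:**
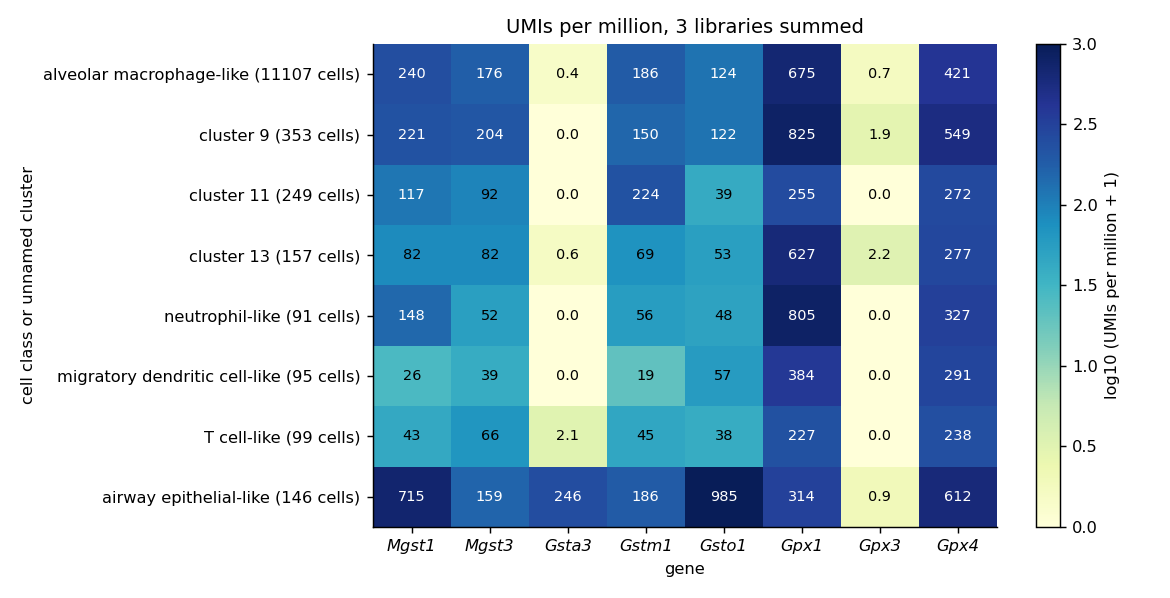
Level of each gene by cell class or unnamed cluster, 3 libraries summed; numbers are CPM (UMIs per 1000000) and colour is log10 of CPM plus 1, to be read down a column. Gsta3 reaches 246 CPM in airway epithelial-like cells and at most 2.1 CPM elsewhere, and Gpx3 stays at or under 2.2 CPM in each row.

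The other genes of glutathione metabolism in alveolar macrophage-like cells did not all differ in the same direction. They were counted as measured from 100 UMIs over the 3 libraries, with no minimum level, where 11.5% of 12876 genes were 1.5-fold higher and 4.32% lower at 1.5 ppm than in filtered air. Among 15 other transferase genes measured, 2 were higher and none lower. Gstp1, the pi-class transferase, had 11.0 CPM in filtered air, 14.6 CPM at 1 ppm and 37.3 CPM at 1.5 ppm, a log2 ratio of 1.76 at 1.5 ppm, and of 1.23 relative to genes of like length. Its near-copy Gstp2 followed at 1.05 on 149 UMIs, and the pair may share reads. Clic1, a chloride channel protein with a transferase fold, had 0.40. Prdx6, a peroxiredoxin that uses glutathione, had 0.29 and was the only measured gene of 6 listed as other glutathione peroxidases.

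For glutathione synthesis, reduction and turnover, 1 of 25 measured genes was higher and 3 lower at 1.5 ppm, and none higher and 3 lower at 1 ppm, where 2.02% of all measured genes were higher and 3.04% lower. Slc7a11 had 72.9 CPM in filtered air, 22.9 CPM at 1 ppm and 39.2 CPM at 1.5 ppm, and thus was lower in both ozone libraries. Cluster 12, with 97, 14 and 75 cells, held 62.5% of these UMIs, and without it Slc7a11 had 14.9, 14.6 and 19.7 CPM, so the class value moved with the cells of that cluster. Me1, malic enzyme, which supplies NADPH, had log2 ratios of -1.89 at 1 ppm and -1.05 at 1.5 ppm, and without cluster 12 of -0.66 and -0.13. Gclm, the modifier subunit of glutamate-cysteine ligase, had -0.60 at 1 ppm and -0.15 at 1.5 ppm, and without cluster 12 -0.24 and 0.19. The counts without that cluster were 1 lower at 1 ppm, and 2 higher and 1 lower at 1.5 ppm. The one higher gene was the mitochondrial glutaredoxin Glrx2, at 0.73.

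Among 16 measured genes of Nrf2 control and its targets, 2 were higher and 2 lower at 1.5 ppm (11.5% and 4.32% of all measured genes), and none higher and 4 lower at 1 ppm (2.02% and 3.04%). Without cluster 12 they were 2 higher and none lower at 1.5 ppm, and 1 lower at 1 ppm. Hmox1 had 392 CPM in filtered air, 171 CPM at 1 ppm and 182 CPM at 1.5 ppm, and without cluster 12, which held 39.0% of its UMIs, 181, 148 and 130 CPM. Nqo1, a quinone reductase, had a log2 ratio of -1.20 at 1 ppm, on 447 UMIs in all, and of -0.63 without cluster 12. Txn1, thioredoxin, had 908 CPM in filtered air, 1075 CPM at 1 ppm and 1640 CPM at 1.5 ppm. The median log2 ratio of the list was -0.18 at 1.5 ppm, against -0.04 for all measured genes.

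Of all measured genes, 11.5% were 1.5-fold higher and 4.32% lower at 1.5 ppm, and 2.02% higher and 3.04% lower at 1 ppm. None of 8 genes of selenoprotein synthesis passed 1.5-fold at either dose. The farthest at 1.5 ppm was Pstk, a kinase of the selenocysteine transfer RNA, at 0.36. Of 15 other selenoprotein genes measured, 4 were higher and 1 lower at 1.5 ppm, beside the 11.5% and 4.32% of all measured genes. Their median log2 ratio was 0.30, against -0.04 for all measured genes. Selenoh, a nuclear selenoprotein, had 48.9 CPM in filtered air, 58.5 CPM at 1 ppm and 117 CPM at 1.5 ppm. Selenok, of the endoplasmic reticulum, had 141, 164 and 272 CPM. Relative to genes of like length the log2 ratios of Selenoh and Selenok at 1.5 ppm were 0.74 and 0.80. Selenom, at 0.95, rested on 203 UMIs. Of 11 measured genes linked to ferroptosis, 1 passed 1.5-fold at 1.5 ppm, the ferritin heavy chain Fth1 at 0.84. Tfrc, the transferrin receptor, had 0.50, and Lpcat3, which loads polyunsaturated fatty acids into phospholipids, had -0.48. With 8 and 11 genes, the counts for selenoprotein synthesis and ferroptosis are not read as results about those lists.

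From cell to cell, with cells thinned to 5000 UMIs, Spearman's rho between pairs of the 6 tested members ran between -0.02 and 0.17 within a library. Thinned cells held a mean of 0.524 to 3.47 UMIs of each gene, and counting error at that level draws rho towards 0, so these values do not show whether the genes vary together in single cells. Over 41 sums of 50 or more cells by cluster and library, which share libraries and differ in depth, Pearson's r of the log2 levels was 0.83 between Mgst1 and Gsto1 and 0.82 between Gpx1 and Gpx4. The sums span all cell classes, so r is not a value within macrophages. Airway epithelial-like cells at 1.5 ppm were the highest sum for Mgst1 (708 CPM) and Gsto1 (964 CPM), and clusters 7 and 18 the lowest for Gpx1 and Gpx4. How far r rests on them was not tested. Of 7179 genes, those most like each member over the 41 sums were Zfp706 (0.89) and Sdhaf4 (0.89) for Mgst3. For Gstm1 they were Taldo1 (0.86) and Prdx1 (0.84), for Gsta3 Uchl1 (0.98) and Gsta1 (0.97), and for Gsto1 Pttg1ip (0.92) and Mgst1. For Mgst1 they were Gsto1 and Laptm4a (0.80), for Gpx1 Gnb2 (0.95) and Rac1 (0.94), and for Gpx4 Oaz1 (0.96) and Chchd2 (0.95). Gpx3 was under the minimum level in every sum. Airway epithelial-like cells reached 50 cells only at 1.5 ppm (99 cells), where Gsta3 had 235 CPM. The next highest Gsta3 level among the sums was 14.3 CPM, in cluster 12 of filtered air. The Gsta3 correlations thus rest largely on that airway sum.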

How the data were processed

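The authors deposited whole-number UMI counts per gene and barcode for each of the 3 libraries, per the file headers with Cell Ranger 8.0.0 and, in the submitters' processing notes, genome build GRCm39 (mm39). The counting of intronic reads is not given in the sources. No annotation of that build was at hand, so transcript lengths and overlaps came from GENCODE M21 and promoters from RefSeq, both GRCm38, matched by identifier or symbol. All 8 genes matched.

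Barcodes were kept with at least 500 UMIs, 300 genes and at most 10% mitochondrial UMIs, giving 3479 filtered air, 2241 1 ppm and 6577 1.5 ppm cells with 50808279, 38147865 and 93824775 UMIs. Cells were clustered without the 8 members (scanpy 1.11.5, 2000 variable genes, 30 components, 15 neighbours, leidenalg 0.10.2 at resolution 1). A cluster took a class name, ending in "-like", from at least 3 counted markers; the scoring was chosen once the data had been seen. No doublet caller was run, so doublets remain. Of the other clusters, 9 had few UMIs, 11 had 2 counted markers of its best class, and in 13 markers of a second class led, so these 3 stayed unnamed.

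UMIs were summed per library and class and divided by the total (CPM), with exact Poisson intervals. Ratios have exact conditional intervals, shares exact binomial (Clopper-Pearson) ones, at 95%, and these cover counting error only. A log2 ratio adds 1 UMI to each sum. With 1 library per group there was no test. The calculation was tested on simulated data. TMM factors came from edgeR 4.0.16. The members, lists and alternatives were chosen with earlier results of these data known. Named besides the 8 members were up to 3 measured genes per list and comparison by absolute log2 ratio, and 2 genes per member most like it over clusters. Values of Gclm at 1.5 ppm, Scgb1a1 and genes leading clusters fall outside that rule.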

Additional observations from a re-analysis of the deposited data

Results flagged for a closer look

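The barcodes removed for more than 10% mitochondrial UMIs, which enter no comparison above, numbered 454 at 1.5 ppm and 842 at 1 ppm, against 1594 in filtered air. Gsta3 in them stood at 17.8 CPM at 1.5 ppm (11.4 to 26.5), above 2.90 CPM in filtered air (1.86 to 4.31). Gsto1 stood at 111 CPM at 1.5 ppm (94.1 to 130) and 85.9 CPM at 1 ppm (77.5 to 94.9), above 43.2 CPM in filtered air (38.9 to 48.0). The 10 airway epithelial markers summed to 6472 CPM at 1.5 ppm and 1987 CPM at 1 ppm, against 1264 CPM in filtered air, and so were highest in the same library as the 2 genes. Their part in these levels was not tested.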

How the results depend on the processing

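Mgst3 at 1.5 ppm stayed past 1.5-fold against filtered air in all 14 alternatives that recompute it, with log2 ratios between 0.67 and 1.20, and against 1 ppm in all 14, between 0.94 and 1.24. Within mitochondrial strata, though, its ratio to filtered air was under 1.5-fold in 3 of 4: 1.44 in cells under 2%, 1.46 at 4 to 6% and 0.949 at 6 to 10%. Gstm1 stayed past it in 13 of 14 against filtered air (-0.97 to -0.57) and 12 of 14 against 1 ppm (-0.74 to -0.52). The count of members called at 1.5 ppm against filtered air was 2, and 1 with no upper limit on the mitochondrial share (Gstm1 -0.57) or with a 2-fold rule, and 3 with a looser fold or when centred on genes of like length (Gsto1 -0.60). Against 1 ppm it was 2, and 1 under those same settings or without the 5% of cells with the most UMIs. At 1 ppm against filtered air it was 0, and 1 with no minimum level, where Gpx3 passed. Gpx4 at 1.5 ppm against filtered air ran between -0.10 and 0.54 over the 14 alternatives, below 0 in the length-centred setting alone. By mitochondrial stratum, however, the Gpx4 ratio was under 1 at 4 to 6% (0.760) and at 6 to 10% (0.486). It was above 1 in cells under 2% and at 2 to 4%. Centring on genes of like length and leaving out clusters of over 6% mitochondrial UMIs were chosen after seeing the data, as was counting the other gene lists without the cluster of highest Slc7a11, under which the 3 lower genes of glutathione synthesis became 1 at either dose (1 higher became 2 at 1.5 ppm), and the lower Nrf2 genes 1 for 4 at 1 ppm and 0 for 2 at 1.5 ppm. Gsta3 at 1.5 ppm against filtered air, -1.53, was 0.84 with all kept cells whatever their class, which adds the airway epithelial-like cells. TMM factors were 0.982 at 1 ppm and 0.993 at 1.5 ppm, against 1.03 in filtered air. Counts over all genes moved by over 1.5 times with the threshold (a looser fold, a 2-fold rule or no minimum level, in that order): at 1.5 ppm against filtered air 325 higher became 757, 60 or 1485 and 146 lower became 842, 15 or 556. At 1 ppm against filtered air 15 higher became 211, 2 or 260 and 32 lower became 284, 6 or 391, and for 1.5 ppm against 1 ppm 184 higher became 546, 54 or 1328 and 55 lower became 336, 4 or 409. The 184 also became 110 without cells of 3 or more G2 and M phase UMIs. No paired analysis was possible because each group is 1 library. Depth limits Gsta3 and Gpx3, with 75 and 119 UMIs in the class. Gpx3 at 1 ppm against filtered air, 1.01, was past 1.5-fold in 11 of 14 alternatives. It was lowest, 0.44, without cells of 3 or more G2 and M phase UMIs.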
